A study of Mus musculus with 7 samples.

Results

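Carboxylesterase genes of mouse liver were followed across a comparison of livers with high and with low total bile acids. The members were the rows of the count table whose symbol was Ces1b, Ces1c, Ces1d, Ces1e, Ces1f, Ces1g, Ces2a, Ces2e, Ces3a or Ces3b, which gave 10 of the 37620 genes in the table. All 10 had enough counts to be among the 15249 genes tested. By name, 6 belong to the Ces1 cluster, 2 to the Ces2 cluster and 2 to the Ces3 cluster.

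Bulk RNA sequencing had been done on whole liver of C57BL/6 mice, all of which had eaten a Western diet for 30 weeks. One group, H-TBA, had high total bile acids and comprised 4 libraries; the other, L-TBA, had low total bile acids and comprised 3. The labels name no genetic change, agent or other diet that separates the groups, and no age or sex. Whether the libraries are separate animals is not stated, and the p-values therefore cover only the spread from library to library, which may be technical.

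Carboxylesterases are serine hydrolases that split ester and amide bonds in drugs, pesticides and endogenous lipids such as triglycerides and cholesteryl esters. In mice the genes have multiplied into tandem arrays on chromosome 8, and many of the enzymes are made in hepatocytes, where most sit in the lumen of the endoplasmic reticulum. A His-X-Glu-Leu signal at the end of the protein holds an esterase there, and an esterase without such a signal can be secreted, as happens with Ces1c, the main esterase of mouse plasma.

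The last 8 codons before the stop codon show which members carry that signal, and they are given from the GENCODE M21 coding sequences, with the codons of His-X-Glu-Leu in capitals.
Ces1b: cctactgagcacagagaacacaaa
Ces1c: cctactgaacacacagaacacaaa
Ces1d: tcccacagggaaCATGTTGAGCTC
Ces1e: ctgccgacagaaCACACTGAGCTG
Ces1f: ccccagccatacCACAATGAGCTG
Ces1g: tcccatagggaaCATGTTGAACTG
Ces2a: tctcaggacaagCATGCAGAGCTG
Ces2e: tctcaggagaggCACAAAGAGTTG
Ces3a: agcaggaaagttccagaggagctc
Ces3b: agcaggaaagttccagaggagctc
The exact His-X-Glu-Leu pattern was present in 6 members, namely Ces1d, Ces1e, Ces1f, Ces1g, Ces2a and Ces2e, and absent in 4. Of these 4, Ces3a and Ces3b end in codons for Pro-Glu-Glu-Leu, which keep the Glu-Leu. Whether that end holds the protein in the endoplasmic reticulum was not tested. Ces3a and Ces3b ended in the same 8 codons, and over their whole coding sequences they were 95.3% identical. The other near pairs were Ces1b with Ces1c (90.9%), Ces2a with Ces2e (83.3%) and Ces1d with Ces1g (81.5%). Such likeness bears on the counts, because a read from a stretch that 2 genes share cannot be placed. Of all 50-base stretches of the transcript, 30.9% in Ces3a and 26.13% in Ces3b also occurred in the other gene of that pair. Ces1c shared 13.38% and Ces1b 10.81% with some other carboxylesterase gene, and the remaining 6 members between 0.53% (Ces1f) and 3.36% (Ces2e). How reads of shared stretches were counted, and whether strand was used, is not given in the sources used here, so the split of counts between Ces3a and Ces3b and between Ces1b and Ces1c is uncertain.

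Levels are given as CPM, the counts of a gene relative to the size of its library after TMM scaling, which sets the libraries on a common scale, and between genes as CPM per kilobase of transcript. Ces1c was the most abundant member per kilobase in both groups, followed by Ces3a and Ces1d. In L-TBA the mean was 618 ± 71.5 CPM per kilobase for Ces1c, 465 ± 65.1 for Ces3a and 293 ± 52.9 for Ces1d (SD, n = 3). In H-TBA the same genes stood at 537 ± 47.9, 319.9 ± 68.7 and 191 ± 36.3 CPM per kilobase (SD, n = 4). The libraries of these 3 genes did not overlap with those of the next gene down in either group. Below them the order in L-TBA was Ces1f (136), Ces3b (110.2), Ces1g (100.1), Ces2e (66.4), Ces1e (60.9), Ces1b (59.7) and Ces2a (55.9 CPM per kilobase), and of these neighbours only Ces1g and Ces2e had ranges apart. In H-TBA the order was Ces3b (103), Ces1g (87.7), Ces2a (76.1), Ces1f (64.2), Ces1b (58.8), Ces2e (40.0) and Ces1e (38.7 CPM per kilobase), and only Ces1b and Ces2e had ranges apart. Ces2a thus went from rank 10 to rank 6 and Ces1f from rank 4 to rank 7.

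As a share of the family's summed level per kilobase, Ces1c took 31.6% ± 5.40 in L-TBA and 35.8% ± 3.13 in H-TBA (SD, n = 3 and 4). Ces2a took 2.85% ± 0.296 and 5.04% ± 0.184 in the same groups. Ces1f took 6.88% ± 1.14 and 4.20% ± 0.853. All 10 members together made up 0.372% ± 0.0157 of all counts in L-TBA and 0.317% ± 0.0332 in H-TBA. In whole liver, fewer cells of a type and less RNA per cell cannot be told apart.

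**Figure D1:**
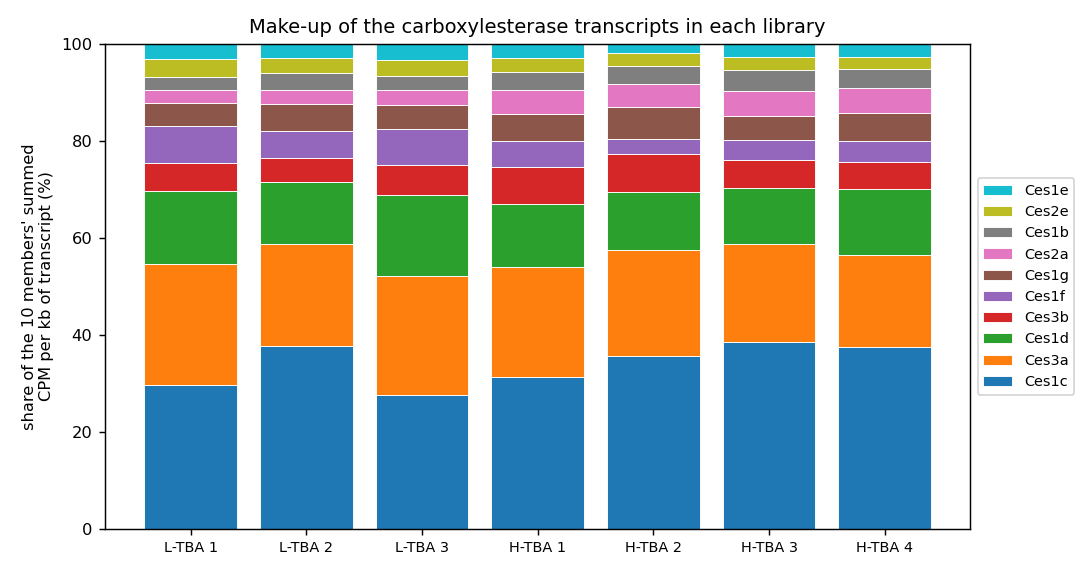
Makeup of the family's summed CPM per kilobase (y axis, percent) in each library (x axis), with 1 colour per member. Ces1c, Ces3a and Ces1d fill most of every bar, and the Ces2a segment is wider in the 4 H-TBA bars (mean 5.04%) than in the 3 L-TBA bars (mean 2.85%).

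Between the groups, 5 members were lower in H-TBA (Ces1d, Ces1e, Ces1f, Ces2e and Ces3a), 1 was higher (Ces2a) and 4 did not pass the test (Ces1b, Ces1c, Ces1g and Ces3b). The test was edgeR's quasi-likelihood test over all 15249 genes with Benjamini-Hochberg adjustment at 0.05, in which 10.7% of all genes were lower and 13.1% higher. Groups did not overlap, with every H-TBA library below every L-TBA library, for 4 members against 16.3% of all genes, and with every H-TBA library above for 1 member against 17.2% of all genes. The median log2 fold change of the members, H-TBA over L-TBA, was -0.37, and that of all tested genes was 0.00. Leaving out L-TBA 1 left 0 members higher and 3 lower, leaving out L-TBA 2 left 0 higher, and leaving out L-TBA 3 left 3 lower. Scaling by library totals in place of TMM kept 1 higher and 5 lower with a median of -0.22, although it moved the median of all genes by 0.16 and the calls over all genes from 2003 higher and 1635 lower to 3117 higher and 832 lower.

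**Figure D2:**
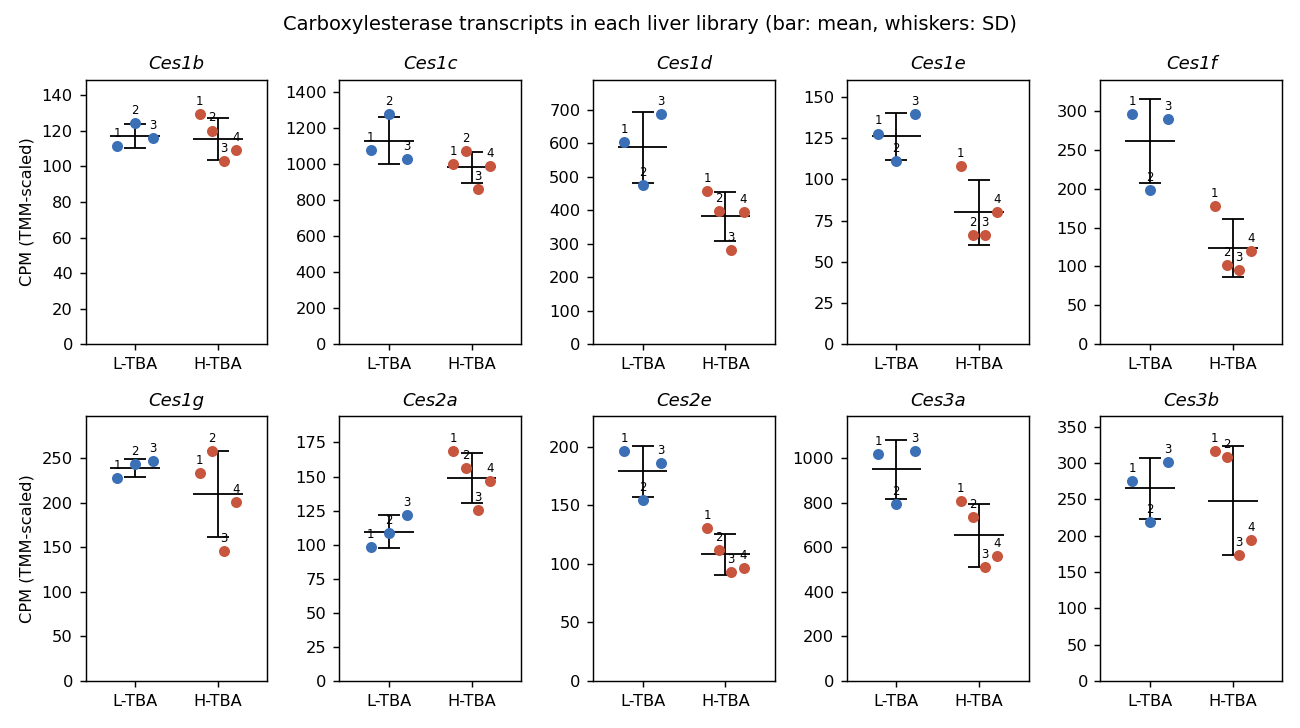
Level of each member in each library (TMM-scaled CPM, linear axis from 0, 1 panel per member), with L-TBA and H-TBA side by side; points are libraries marked by their number, bars are group means and whiskers are SD. Ces1d, Ces1e, Ces1f and Ces2e show H-TBA points wholly below the L-TBA points, Ces2a shows them wholly above, and the other 5 members overlap.

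Ces1f, a lipid droplet-associated triglyceride hydrolase of hepatocytes, had the largest fold change among the members. Its level was 296, 199 and 290.0 CPM in L-TBA 1 to 3 and 178, 102, 95.3 and 119 CPM in H-TBA 1 to 4. The groups did not overlap, and the highest H-TBA library was H-TBA 1. The mean fell from 262 ± 54.4 CPM (SD, n = 3) to 124 ± 37.4 CPM (SD, n = 4), with -1.08 ± 0.20 (SE) as the log2 fold change and 0.00339 as the edgeR adjusted p. Each call was repeated in 15 alternative fits at the threshold of 0.05, made up of 8 other tools, scalings or filters and 7 fits that each left out 1 library; the fit with the replicate number as a block and the stricter threshold of 0.01 are not among the 15. Ces1f passed in all 15, with adjusted p up to 0.0164.

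Ces1d, the triglyceride hydrolase that mobilises stored lipid for the assembly of very low density lipoprotein (VLDL), stood at 602, 475 and 686 CPM in L-TBA and at 456, 397, 282 and 393 CPM in H-TBA. Its groups did not overlap, although the lowest L-TBA library lay just above the highest H-TBA library. The mean fell from 588 ± 106 to 382 ± 72.8 CPM (SD, n = 3 and 4), a log2 fold change of -0.62 ± 0.16 (SE; edgeR adjusted p = 0.0183). The call was lost without L-TBA 1 (adjusted p = 0.0596) and without L-TBA 3 (adjusted p = 0.0788); over the 15 fits the adjusted p ran from 0.0015 to 0.0788.

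Ces1e, also known as egasyn, which anchors beta-glucuronidase in the endoplasmic reticulum, measured 128, 111 and 139.5 CPM in L-TBA and 108, 66.2, 66.4 and 80.2 CPM in H-TBA. The groups did not overlap, and H-TBA 1 lay close to the lowest L-TBA library. The mean fell from 126 ± 14.2 to 80.2 ± 19.7 CPM (SD, n = 3 and 4), a log2 fold change of -0.65 ± 0.16 (SE; edgeR adjusted p = 0.0122), and the call held at 0.05 in all 15 fits, with adjusted p up to 0.0483.

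The other 3 Ces1 members did not pass the test. Ces1c, the plasma esterase, measured 1079, 1277 and 1031 CPM in L-TBA and 1001, 1074, 864 and 991 CPM in H-TBA. One H-TBA library exceeded an L-TBA library, so the groups overlapped, and the log2 fold change was -0.20 ± 0.12 (SE; edgeR adjusted p = 0.238). Ces1b, its nearest relative in sequence, measured 111, 125 and 116 CPM in L-TBA and 129, 120.2, 103 and 109 CPM in H-TBA. Its group means were 117 ± 6.80 and 115 ± 11.7 CPM (SD, n = 3 and 4), with a log2 fold change of -0.02 ± 0.10 (SE; edgeR adjusted p = 0.891), which turned to 0.13 under library totals. Ces1g, a lipid hydrolase of the endoplasmic reticulum that restrains lipogenesis, measured 228, 243 and 246 CPM in L-TBA and 233, 258, 146 and 200.4 CPM in H-TBA. H-TBA 2 held the highest value of all and H-TBA 3 the lowest, and the log2 fold change was -0.19 ± 0.16 (SE; edgeR adjusted p = 0.421).

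The 2 Ces2 members went opposite ways. Ces2a, a hydrolase of neutral lipids and of drug esters, measured 98.0, 109 and 122 CPM in L-TBA and 169, 156, 125 and 147 CPM in H-TBA. All 4 H-TBA libraries were above all 3 L-TBA libraries, with H-TBA 3 and L-TBA 3 lying close together. The mean rose from 109.6 ± 11.99 to 149 ± 18.3 CPM (SD, n = 3 and 4), a log2 fold change of 0.45 ± 0.11 (SE; edgeR adjusted p = 0.0160). The call was lost without L-TBA 1 (adjusted p = 0.0805) and without L-TBA 2 (adjusted p = 0.0549), and the adjusted p over the 15 fits ran from 0.0013 to 0.0805.

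Ces2e, an enzyme known to hydrolyse pyrethroid insecticides, measured 196, 155 and 186 CPM in L-TBA and 131, 112, 92.9 and 96.2 CPM in H-TBA. The groups did not overlap. The mean fell from 179 ± 21.7 to 108 ± 17.4 CPM (SD, n = 3 and 4), a log2 fold change of -0.73 ± 0.13 (SE; edgeR adjusted p = 0.00225), and the call held at 0.05 in all 15 fits, with adjusted p up to 0.0126.

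Because Ces2a and Ces2e are near relatives that moved in opposite directions, the 250 bases before the start of each gene are printed, from RefSeq on GRCm38.p6, plus strand, with motif matches in capitals.
Ces2a, chr8:104733753-104734002: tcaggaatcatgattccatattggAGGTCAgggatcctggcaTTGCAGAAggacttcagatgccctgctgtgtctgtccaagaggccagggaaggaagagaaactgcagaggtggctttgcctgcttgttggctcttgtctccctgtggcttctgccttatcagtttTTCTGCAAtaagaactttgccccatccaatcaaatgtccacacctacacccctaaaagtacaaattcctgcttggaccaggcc
Ces2e, chr8:104926010-104926259: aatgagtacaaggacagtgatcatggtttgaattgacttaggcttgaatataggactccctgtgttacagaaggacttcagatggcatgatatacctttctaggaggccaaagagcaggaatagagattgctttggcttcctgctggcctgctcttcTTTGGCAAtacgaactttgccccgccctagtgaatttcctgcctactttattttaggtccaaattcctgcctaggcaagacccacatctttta
The 2 stretches were 67.7% identical over 217 aligned bases. Searched on both strands were AGGTCA (the nuclear receptor half-site), TGACNNNGC (antioxidant response element core), TTGCNNAA (bound by C/EBP factors) and TATAAA. Ces2a held 1 match to AGGTCA, which occurred in 14.02% of all 32851 windows of that length, and 2 matches to TTGCNNAA, which occurred in 9.56%. Ces2e held 1 match to TTGCNNAA. Neither stretch held TGACNNNGC (10.16% of windows) or TATAAA (12.37%).

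Of the Ces3 members, which are abundant liver microsomal esterases, Ces3a measured 1021, 797 and 1034 CPM in L-TBA and 809, 735, 511 and 563 CPM in H-TBA. The groups overlapped, since H-TBA 1 lay above L-TBA 2. The mean fell from 951 ± 133 to 654 ± 140.5 CPM (SD, n = 3 and 4), a log2 fold change of -0.54 ± 0.16 (SE; edgeR adjusted p = 0.0351). The call was lost without H-TBA 3 (adjusted p = 0.0730), H-TBA 4 (0.105), L-TBA 1 (0.117) or L-TBA 3 (0.110), and the adjusted p over the 15 fits ran from 0.0061 to 0.117. Ces3b measured 275, 218 and 302 CPM in L-TBA and 317, 309, 173 and 194 CPM in H-TBA. H-TBA 1 and 2 were above the highest L-TBA library and H-TBA 3 and 4 below the lowest, so the group means of 265 ± 42.5 and 248 ± 74.9 CPM (SD, n = 3 and 4) stood for widely spread libraries. The log2 fold change of Ces3b was -0.09 ± 0.21 (SE; edgeR adjusted p = 0.783), and it turned to 0.05 under library totals.

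H-TBA 1 stood apart from the other H-TBA libraries on the first principal component of all tested genes, which held 64.7% of the variance: it lay at -10.7, the other 3 between -43.5 and -34.6, and L-TBA between 36.8 and 45.2. Without it, all 6 calls held, with log2 fold changes of -0.72 for Ces1d, -0.83 for Ces1e, -1.31 for Ces1f, 0.38 for Ces2a, -0.84 for Ces2e and -0.66 for Ces3a. Total counts ran from 9996990 to 12152613 per library, and the members' counts per library from 677 (Ces1e) to 14235 (Ces1c).

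Ratios between 2 members of the same library do not depend on how the libraries were scaled, and 4 pairs were compared. Ces2e over Ces2a was 2.004, 1.42 and 1.53 in L-TBA and 0.775, 0.718, 0.741 and 0.656 in H-TBA. So Ces2e exceeded Ces2a in counts in every L-TBA library and fell below it in every H-TBA library. The mean log2 ratio was 0.71 ± 0.26 in L-TBA and -0.47 ± 0.10 in H-TBA (SD, n = 3 and 4), a difference of -1.18 (exact permutation test, two-sided, p = 0.0571, 0.0762 after Benjamini-Hochberg adjustment over the 4 pairs). Because Ces2e was lower and Ces2a higher without overlap, this ratio had to separate the groups. Its p is therefore no further evidence beyond the 2 genes. Ces3b over Ces3a was 0.269, 0.274 and 0.292 in L-TBA and 0.391, 0.420, 0.339 and 0.345 in H-TBA. Every H-TBA library was above every L-TBA library, and the log2 ratios differed by 0.42 (exact permutation p = 0.0571, adjusted 0.0762). Ces1f over Ces1d was 0.492, 0.418 and 0.423 in L-TBA and 0.389, 0.258, 0.338 and 0.304 in H-TBA, without overlap, and the log2 ratios differed by -0.48 (exact permutation p = 0.0571, adjusted 0.0762). Ces1g over Ces1d overlapped between the groups, with a log2 difference of 0.41 (exact permutation p = 0.171, adjusted 0.171). With 35 possible splits of 4 against 3 libraries the smallest p was 0.0571, so this test could not reach 0.05.

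**Figure D3:**
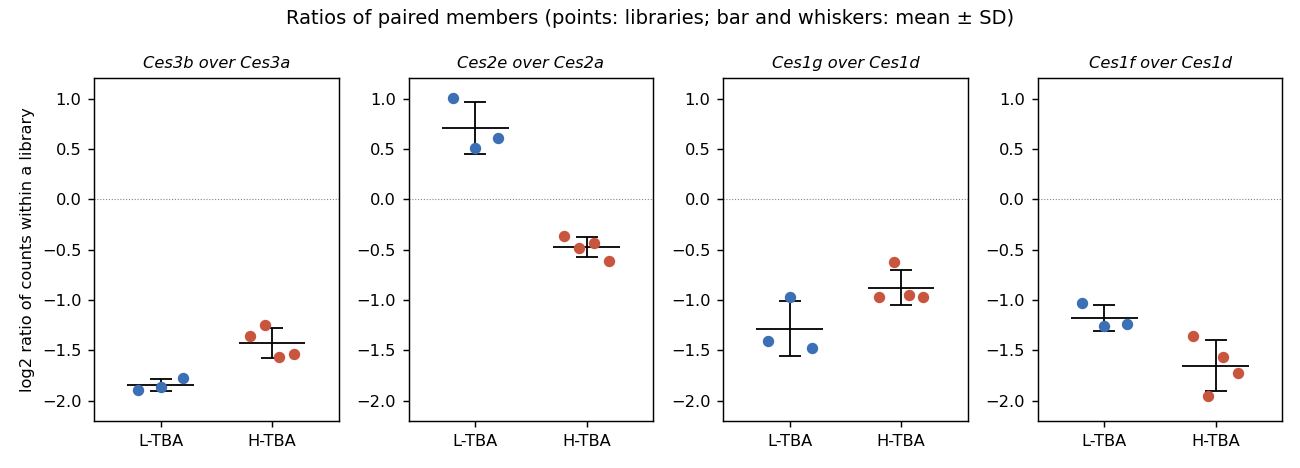
Log2 ratio of paired members within each library (y axis) for 4 pairs (1 panel each), with L-TBA and H-TBA libraries as points, group means as bars and SD as whiskers. Ces2e over Ces2a lies above 0 in all 3 L-TBA libraries and below 0 in all 4 H-TBA libraries; Ces1g over Ces1d is the pair whose groups overlap.

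Summed over clusters, the 6 Ces1 members stood at 2444, 2430 and 2509 CPM in L-TBA and at 2105, 2017, 1556 and 1893 CPM in H-TBA. The groups did not overlap, and the log2 ratio of the means was -0.38. Without Ces1c, which holds much of that sum, the log2 ratio was -0.55. The 2 Ces2 members summed to 294, 264 and 308 CPM in L-TBA and to 299.7, 268, 218 and 243 CPM in H-TBA. Here the groups overlapped, the log2 ratio was -0.17, and the opposite moves of Ces2a and Ces2e were hidden in the sum. The 2 Ces3 members summed to 1295, 1015 and 1336 CPM in L-TBA and to 1125, 1044, 684 and 757 CPM in H-TBA, with overlap and a log2 ratio of -0.43. No test was made on these sums, and whether the clusters differ from each other was not tested.

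Along chromosome 8, in the RefSeq order, the Ces1 genes Ces1a to Ces1h lie together on the minus strand in an array that ends with Ces5a. The Ces2 and Ces3 genes lie together on the plus strand, and 158 other listed genes separate Ces5a from Ces2a. Ces1d, Ces1e and Ces1f, the 3 Ces1 members that fell, are consecutive in that order. Ces1g lies next to Ces1f on one side, and on the other side 1 listed gene separates Ces1d from Ces1c. Ces2a, which rose, opens the plus-strand array. Of the 6 members with the exact His-X-Glu-Leu pattern, 4 were lower, 1 was higher and 1 did not pass. Of the 4 without it, 1 was lower and 3 did not pass. Among all tested genes 10.7% were lower and 13.1% higher. The 4 are the near pairs Ces1b with Ces1c and Ces3a with Ces3b, whose split of counts is uncertain. Whether the pattern goes with the change was not tested.

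**Figure D4:**
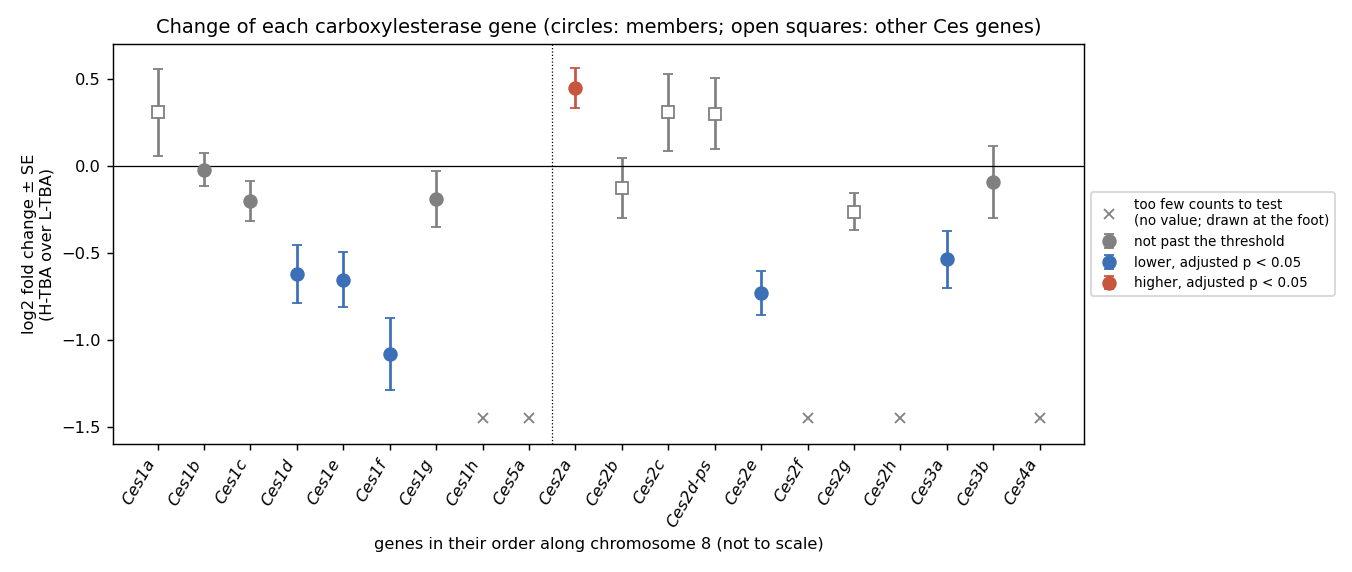
Log2 fold change with SE (y axis, H-TBA over L-TBA) of each carboxylesterase gene in its order along chromosome 8 (x axis, not to scale), with the dotted line between the minus-strand and plus-strand arrays. Circles are the 10 members, open squares the 5 other genes tested, and crosses at the foot carry no value because those 5 genes had too few counts; Ces1d, Ces1e and Ces1f form 1 run of lower genes, while Ces2a is the gene past the threshold above 0.

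The other 10 carboxylesterase genes were low, and none passed the test. Of the 5 that could be tested, Ces2g was the most abundant in CPM, with means of 45.2 ± 4.89 in L-TBA and 37.7 ± 4.48 in H-TBA (SD, n = 3 and 4) and a log2 fold change of -0.26 (edgeR adjusted p = 0.104). Without H-TBA 1 its adjusted p was 0.0260, and the range over the 15 fits was 0.0260 to 0.445. Ces2c, a triglyceride hydrolase of liver and intestine, had means of 22.2 ± 3.25 and 27.6 ± 8.78 CPM and a log2 fold change of 0.31 (edgeR adjusted p = 0.350). The pseudogene Ces2d-ps, with which Ces2c shares 38.21% of its 50-base stretches, stood at 0.30 on the log2 scale (adjusted p = 0.326). Ces1a had 0.31 (adjusted p = 0.414) and Ces2b -0.13 (adjusted p = 0.633), which turned to 0.03 under library totals. Counts summed over L-TBA and over H-TBA were 25 and 23 for Ces1h, 25 and 33 for Ces2f, 34 and 19 for Ces2h, and 12 and 17 for Ces4a. Ces5a had 0 counts in the 7 libraries, which allows a level of up to 0.0383 CPM, counting error only.

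Other ester and lipid hydrolases of liver gave 2 higher and 8 lower of 22 tested, with a median log2 fold change of -0.29. Over all tested genes 13.1% were higher and 10.7% lower. Without H-TBA 1 the hydrolases gave 3 higher and 14 lower, and without any of the others save H-TBA 3 only 1 was higher. Mgll, the monoglyceride lipase, fell from 477 ± 29.0 to 231 ± 49.6 CPM (-1.05 on the log2 scale, edgeR adjusted p = 0.000657). Lipa, the lysosomal acid lipase, fell from 385 ± 18.2 to 246 ± 26.6 CPM, and Lipc, hepatic lipase, from 97.2 ± 3.44 to 65.0 ± 11.3 CPM (SD, n = 3 and 4). Lpl, lipoprotein lipase, rose from 302 ± 10.3 to 481 ± 24.3 CPM (0.67 on the log2 scale, edgeR adjusted p = 0.000611). Pnpla2, the adipose triglyceride lipase, rose by 0.25 on the log2 scale (adjusted p = 0.0327, with 0.116 as the highest value over the 15 fits). Aadac, a microsomal esterase, had a log2 fold change of -0.32 and did not pass (adjusted p = 0.128).

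Among 20 genes of VLDL assembly and triglyceride supply, the process that Ces1d feeds, 2 were higher and 15 lower, with a median log2 fold change of -0.41. The shares of all tested genes were 13.1% higher and 10.7% lower. The lower count was 16 without H-TBA 1, 8 without L-TBA 1, 11 without L-TBA 3 and 10 without any other library; the higher count was 1 without L-TBA 2 or L-TBA 3. Under library totals 3 were higher and 10 lower. Mogat1, a monoacylglycerol acyltransferase, fell by 1.80 on the log2 scale, Fabp1, the liver fatty acid binding protein, by 1.13, and Pltp, the phospholipid transfer protein, by 0.77 (adjusted p = 0.000516, 0.000768 and 0.000772). Mttp, which loads lipid onto the nascent particle, fell by 0.36 (adjusted p = 0.0333, up to 0.108 over the 15 fits), and Apob, its structural protein, by 0.40 (adjusted p = 0.0346, up to 0.103 over the 15 fits). The 2 higher genes, Sort1 (by 0.52) and Dgat1 (by 0.37), were named after their values were seen. Their edgeR adjusted p was 0.00927 and 0.0106, and up to 0.0463 and 0.0518 over the 15 fits.

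Transcription factors known to act on carboxylesterase genes gave 0 higher and 3 lower of 15, with a median log2 fold change of -0.19. Such counts stand beside 13.1% higher and 10.7% lower over all tested genes. Nr1i3, which encodes the xenobiotic receptor CAR, measured 265, 220.2 and 279 CPM in L-TBA and 126, 103, 79.9 and 111 CPM in H-TBA. It had no overlap and fell by 1.28 on the log2 scale (edgeR adjusted p = 0.000239). Ppara, the fatty acid sensor, fell by 1.09 and Nr1h4, the bile acid receptor FXR, by 0.71 (adjusted p = 0.000940 and 0.00480). Nr1i2, which encodes the xenobiotic receptor PXR, was at 0.05 on that scale (adjusted p = 0.811), which was -0.06 without H-TBA 1. Values for the other regulators named were -0.08 for Hnf4a (adjusted p = 0.695), which turned to 0.07 under library totals, -0.29 for Cebpa (0.109) and -0.23 for Nfe2l2 (0.115).

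Only some lists of cell type and liver zone genes moved with the groups. Their counts are set beside the shares of all tested genes, 13.1% higher and 10.7% lower. Hepatocyte genes gave 1 higher (Ahsg, by 0.43) and 3 lower of 14, among them Apoa2 (by 0.84) and Ttr (by 0.45), with a summed level of 82121 to 87557 CPM in L-TBA and 72065 to 78430 CPM in H-TBA; 5 were lower without H-TBA 1 or L-TBA 3, 2 without H-TBA 2, 3, 4 or L-TBA 2, and 1 without L-TBA 1, and 0 were higher without H-TBA 2, H-TBA 4, L-TBA 1 or L-TBA 3. Alb, albumin, stood at -0.14 on the log2 scale (adjusted p = 0.473), which turned to 0.01 under library totals. Pericentral hepatocyte genes gave 0 higher and 9 lower of 14, with a summed level of 12089 to 13491 CPM in L-TBA and 4670 to 7801 CPM in H-TBA, and Glul, glutamine synthetase, fell by 1.95, Cyp2c37 fell by 1.68 and Aldh3a2 fell by 0.83 on the log2 scale. Periportal hepatocyte genes gave 9 higher and 2 lower of 15, with Sds higher by 1.99, Gls2 by 1.25 and Cdh1 by 1.31, while Apoa4 fell by 1.21 and Pigr fell by 0.67, both named after their values were seen. The summed level of this list overlapped between the groups, at 51641 to 61468 CPM in L-TBA and 51156 to 60630 CPM in H-TBA. Most of that sum was Alb (mean 41021 CPM in L-TBA and 37121 CPM in H-TBA), so it does not show how the other genes moved together. Cholangiocyte markers were higher for 10 of 10, with a summed level of 488 to 765 CPM in L-TBA and 1051 to 1995 CPM in H-TBA; Krt19, a bile duct keratin, went from 6.04 ± 1.81 to 49.6 ± 17.9 CPM (SD, n = 3 and 4). Of 9 adipocyte genes, 5 were tested and 2 were lower (Cfd fell by 2.24 and Pparg fell by 0.66). Cfd overlapped between the groups, and its adjusted p was up to 0.0696 over the alternative fits. Fabp4 stood at 57.5 CPM in L-TBA and 57.4 CPM in H-TBA. Adipoq, Lep, Plin1 and Retn had too few counts to test, with Lep at 0 counts. The part of these shifts in the values of the carboxylesterase genes was not tested.

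For the member of each cluster with the highest mean level per kilobase over all 7 libraries, the genes outside the family with the most similar pattern were sought among 4734 genes by Pearson's r of log2 CPM over the 7 libraries, as a description. For Ces1c these were Copb1 (r = 0.980), Ppp4r2 (0.976) and Ostc (0.966). Ces2a led its cluster over all libraries (67.5 CPM per kilobase against 51.3 for Ces2e) and in H-TBA, but not in L-TBA. For Ces2a the most similar genes were Klf15 (0.983), Mat1a (0.974) and Rapgef4 (0.973), of which Klf15 (log2 fold change 0.58) and Rapgef4 (0.74) were also higher in H-TBA (adjusted p = 0.0162 and 0.00165). For Ces3a they were Cyp4v3 (0.995), Naa50 (0.994) and Dhdh (0.991), of which Dhdh was lower in H-TBA (log2 fold change -0.48, adjusted p = 0.0421). These points share the libraries and their scaling. Because r was taken across both groups, a like change between the groups was partly built into the choice of genes.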

How the data were processed

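For 7 liver libraries the authors deposited raw counts for each Ensembl identifier, whole numbers that were not normalized. Per the submitters' processing notes, CASAVA, TopHat2 2.0.11, DESeq2 1.18.1 and the build mm9 were used; the role of each, the counting tool and its strand setting were not given in the sources used here. Symbols came from a GENCODE table (32897 of 37620 identifiers). Coding ends, transcript lengths and identities came from GENCODE M21, and gene order and promoters from RefSeq GRCm38.p6, another build than mm9, so no count was placed by coordinate.

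Genes were kept with filterByExpr (minimum count 10, minimum total 15), which left 15249 of 23697 genes with a count. Libraries were scaled by TMM and compared with edgeR 4.0.16 (quasi-likelihood test; R 4.3.3), group as the only term, Benjamini-Hochberg adjustment at 0.05. The procedure was tested on simulated data. The common biological coefficient of variation was 0.125. Alternatives were DESeq2 1.42.0, limma 3.58.1 (voom), other scalings and filters, the replicate number as a block, a threshold of 0.01, and each library left out. Libraries of 1 group differed beyond sampling noise (smallest chi-square per degree of freedom 5.29). Counting limits cover counting error only, since reads carry no molecular identifiers here.

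The members and lists were chosen with earlier results of these data known. Genes named were all carboxylesterases with a count, the 3 with the smallest adjusted p past the threshold in each list, a fixed set of regulators and marker genes, and the 3 genes most like the leading member of each cluster; Ces5a, with no count, was added, and its name was chosen after its values were seen.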

Additional observations from a re-analysis of the deposited data

Results flagged for a closer look

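In 57 groups of 4 H-TBA values that were examined, 6 held a library whose gap to its nearest neighbour was above Dixon's 95% critical value for its share of the range, and chance gives about 1 in 20. In the family this was the log2 ratio of Ces1g over Ces1d, which was -0.62 in H-TBA 2 against -0.95 in the nearest library. H-TBA 1 was the distant library for Mgll (305 CPM, nearest 215), Lpl (445 CPM, nearest 489), Fabp1 (1477 CPM, nearest 1002) and Nr1h4 (97.1 CPM, nearest 69.3). H-TBA 4 was the distant library for Pltp (65.4 CPM, nearest 52.5).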

How the results depend on the processing

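Over all genes, the calls of 2003 higher and 1635 lower became 3117 and 832 under library totals and 1126 and 749 at an adjusted p of 0.01, and ran from 1470 to 2429 higher and from 1035 (without L-TBA 1) to 2123 lower when 1 library was left out. Among the carboxylesterase members, the 1 higher and 5 lower became 0 and 2 at 0.01 (Ces1f and Ces2e), and ran from 0 to 1 higher and from 3 to 5 lower with 1 library left out. The replicate numbers gave no sign of pairing. Correlations of deviations from the group mean were -0.107, -0.0623 and -0.0742 for same-numbered libraries, and from -0.0651 to 0.101 for the others. With 3 and 4 libraries these values cannot exclude pairing. With the number as a block, 1166 genes were higher and 754 lower, and 0 members were higher and 3 lower; Ces1e, Ces1f and Ces2e were lower (adjusted p = 0.0323, 0.0106 and 0.0184), while Ces1d (0.0885), Ces2a (0.0989) and Ces3a (0.149) did not pass, and neither did Mttp (0.146), Apob (0.204) or Pnpla2 (0.165). Fold changes near 0 changed sign: Ces1b was 0.13, Ces3b 0.048, Ces2b 0.028, Hnf4a 0.073 and Alb 0.012 under library totals, and Nr1i2 was -0.0040 with voom. With 1 library left out, Ces1b ran from -0.082 (without H-TBA 1) to 0.031 (without H-TBA 3), Ces3b from -0.23 (without H-TBA 1) to 0.047 (without H-TBA 3), and Nr1i2 from -0.065 (without H-TBA 1) to 0.11 (without H-TBA 3). The cause was not tested. Pair ratios and cluster sums kept their direction in every alternative, with Ces2e over Ces2a between -1.28 and -1.03. The Ces2 sum came close to no change, however. Its log2 ratio of -0.17 was -0.017 under library totals and -0.074 per kilobase. With 3 and 4 libraries, changes smaller than the spread were not detectable.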
